A study of Mus musculus with 8 samples.

Results

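The genes that carry the prolactin signal from the cell surface to the nucleus and switch it off again were followed in intestinal epithelial cells of lactating mice that did or did not carry Rank. They are 10 genes of the 54532 in the count table, chosen by name: the prolactin receptor Prlr, the kinases Jak1 and Jak2, the transcription factors Stat3, Stat5a and Stat5b, and the inhibitors Cish, Socs1, Socs2 and Socs3. Cells came from 4 WT and 4 Rank-knockout mice at lactation day 5, with 1 library per mouse. Rank (Tnfrsf11a) encodes the receptor of the cytokine RANKL. Per the study's methods, floxed Rank was removed by a Cre recombinase under the villin promoter, which is active throughout the intestinal epithelium, so other cell types keep the gene. The dams were littermates on a C57BL/6J background and were mated to wild-type C57BL/6J males. An age range is stated for the mice of the whole study but not for these dams, and whether the WT mice carried Cre or a floxed allele is not given in the sources used here.

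Prolactin is a pituitary hormone that rises in pregnancy and lactation and is best known for driving milk production in the mammary gland. Its receptor has no enzymatic activity of its own. On binding the hormone it activates the bound kinase JAK2, which phosphorylates the receptor and the transcription factors STAT5A and STAT5B, and to a lesser degree STAT3 in some cells. Phosphorylated STATs pair up, enter the nucleus and bind DNA, where among their targets are the genes of CIS (Cish) and the SOCS proteins, which then block the receptor or the kinase. Activation is a matter of phosphorylation, which RNA counts do not measure.

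The letters that a STAT pair reads are spelled TTCNNNGAA, a motif that reads the same on both strands. It was searched in windows from 250 bases before to 50 bases after each annotated RefSeq start on GRCm38.p6. Windows were given for 9 of the 10 members, all but Socs2, and some members had several starts. The motif stood in 3 of the 13 windows of the members, and in 8.3% of all 32851 windows of this length. The 3 windows with a match are printed because they show where in these genes the letters of the pathway's own factors occur. Each runs 5′ to 3′ along the gene, the annotated start is at base 251, and capitals mark the motif.
Cish, chr9:107296409-107296708, plus strand: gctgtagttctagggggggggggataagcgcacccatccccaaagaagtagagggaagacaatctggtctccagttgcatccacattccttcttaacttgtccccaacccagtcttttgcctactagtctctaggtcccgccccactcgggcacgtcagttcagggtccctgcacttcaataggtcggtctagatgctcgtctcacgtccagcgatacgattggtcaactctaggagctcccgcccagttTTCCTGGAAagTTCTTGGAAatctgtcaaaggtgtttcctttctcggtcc
Prlr, chr15:10223656-10223955, plus strand: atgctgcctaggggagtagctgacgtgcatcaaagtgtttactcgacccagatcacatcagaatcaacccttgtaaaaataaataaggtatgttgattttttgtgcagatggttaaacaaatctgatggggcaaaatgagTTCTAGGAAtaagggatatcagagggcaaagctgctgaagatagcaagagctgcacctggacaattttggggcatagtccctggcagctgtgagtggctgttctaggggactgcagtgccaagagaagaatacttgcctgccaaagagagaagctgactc
Socs3, chr11:117969317-117969616, minus strand: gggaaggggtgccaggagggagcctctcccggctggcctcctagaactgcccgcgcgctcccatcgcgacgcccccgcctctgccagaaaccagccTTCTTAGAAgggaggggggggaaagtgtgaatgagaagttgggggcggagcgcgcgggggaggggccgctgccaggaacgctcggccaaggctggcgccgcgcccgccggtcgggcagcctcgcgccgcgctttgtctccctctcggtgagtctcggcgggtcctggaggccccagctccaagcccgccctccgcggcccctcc
The Cish window held 2 copies, starting at bases 251 and 262, that is at and just after the annotated start. In the Prlr window, which belongs to 1 of 3 annotated starts of that gene, the copy began at base 141. The copy of Socs3 began at base 97. A match is a run of letters and not a measured binding site, and the windows of Jak1, Jak2, Stat3, Stat5a, Stat5b and Socs1 held no such run.

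The study was concerned with hormone-driven growth of the intestine in lactation, and the comparison of genotypes asks how transcripts of the prolactin pathway differ when RANK is absent. Jak2 RNA in Rank-knockout was at 49.9% of the WT level, Stat3 and Cish were also lower, and no member was called higher. The prolactin receptor, both Stat5 genes, Jak1, Socs1 and Socs2 did not pass the test. With libraries scaled by their totals alone, Jak2 stayed called, Stat3 and Cish did not, and Socs2 was called higher. Of the 10 members, 9 had enough counts to be tested, and 3 of these passed an edgeR adjusted p of 0.05, all of them lower in Rank-knockout. Among all 9855 genes tested 30.4% were called, 15.8% higher and 14.6% lower. WT and knockout libraries were fully apart for 4 members (Jak1, Jak2, Stat3 and Cish), against 28.8% of all tested genes. The count of called members in either direction is thus near that of any 9 genes in this table, and the results lie in which members differed and by how much. The median log2 fold change was -0.20 over the tested members and 0.02 over all tested genes.

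Levels are given as CPM (counts scaled to a common library size, after TMM normalization). The libraries read the 3′ end of polyadenylated RNA, about 1 tag per transcript whatever its length. CPM of different genes can thus be set side by side only roughly, because the yield of tags per transcript was not measured for each gene. Total counts per library ran from 1530781 to 4335653, and were lower in 3 of the 4 WT libraries than in any Rank-knockout library. Fold changes are Rank-knockout over WT on the log2 scale.

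**Figure D1:**
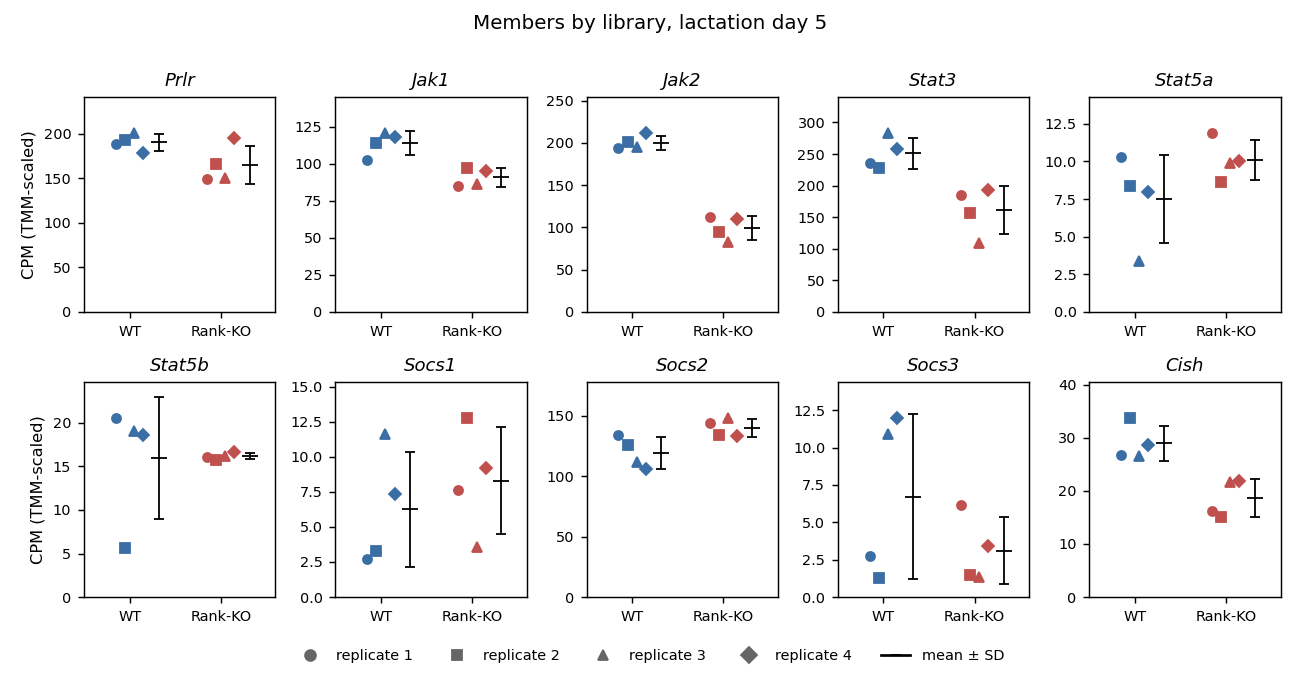
CPM of each member (vertical axis, linear from 0, scaled per panel) in the 4 WT and 4 Rank-knockout libraries, with symbols for the replicate numbers and the mean ± SD beside each group. The genotypes are separate for Jak1, Jak2, Stat3 and Cish, and WT replicate 2 lies at 5.57 CPM for Stat5b.

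Prlr (ENSMUSG00000005268, GRCm38 chromosome 15, 10177238 to 10349180, plus strand) encodes the receptor. Its level was 188.4, 193.1, 200.8 and 178.4 CPM in WT replicates 1 to 4 and 149.4, 165.9, 150.2 and 195.1 CPM in Rank-knockout. Rank-knockout replicate 4 lay among the WT libraries and the other three lay below them. The means were 190.2 ± 9.364 and 165.1 ± 21.35 CPM (SD, n = 4 per genotype), with a log2 fold change of -0.20 that did not pass the test (edgeR adjusted p = 0.27, SE 0.13, 95% interval -0.49 to 0.08). With TMM scaling the interval leaves room for a fall of up to 0.49 and a rise of up to 0.08 on the log2 scale. With libraries scaled by their totals alone, the log2 fold change was -0.0036 (edgeR adjusted p = 0.99), so the room for a rise depends on the scaling. Annotated coding transcripts of Prlr number 7 and have 6 distinct 3′ ends, among them those of the long form, which carries the signal to STAT5, and of short forms, which lack most of the tail inside the cell. The counts sum over all of them.

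The kinases differed from each other. Jak2 (ENSMUSG00000024789, chromosome 19, 29251828 to 29313080, plus strand), the kinase bound to the prolactin receptor, had 193.9, 200.7, 194.6 and 211.7 CPM in the WT libraries and 112.1, 94.19, 82.28 and 109.7 CPM in the Rank-knockout libraries. All 4 knockout libraries lay far below the lowest WT library, and the spread within WT was small. The mean went from 200.2 ± 8.227 to 99.55 ± 13.98 CPM (SD, n = 4), and the log2 fold change was -1.0 (edgeR adjusted p = 0.00022, SE 0.14, 95% interval -1.30 to -0.71). By p Jak2 ranked 79 of the 9855 genes.

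Jak1 (ENSMUSG00000028530, chromosome 4, 101152367 to 101265282, minus strand) serves the receptors of interferons and of the interleukin-6 and interleukin-10 families. It had 102.8, 113.8, 120.9 and 118.5 CPM in WT and 84.91, 97.56, 86.33 and 95.16 CPM in Rank-knockout. The ranges did not overlap, but the gap was small, and the log2 fold change of -0.33 did not pass the test (edgeR adjusted p = 0.075, SE 0.13, 95% interval -0.61 to -0.04). Counts of 2 genes within 1 library give a ratio that no scaling of the libraries can move. For Jak2 per Jak1 this ratio was 1.89, 1.76, 1.61 and 1.79 in WT and 1.32, 0.965, 0.953 and 1.15 in Rank-knockout. The genotypes were separate, so Jak2 was lower relative to its sister kinase as well as on the CPM scale. For Jak2 per Prlr the ratio averaged 1.06 ± 0.0923 in the WT libraries and 0.607 ± 0.0957 in the knockout libraries (SD, n = 4), again without overlap. WT cells thus held about as many Jak2 tags as receptor tags, and the knockout cells fewer Jak2 tags than receptor tags in each library.

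**Figure D2:**
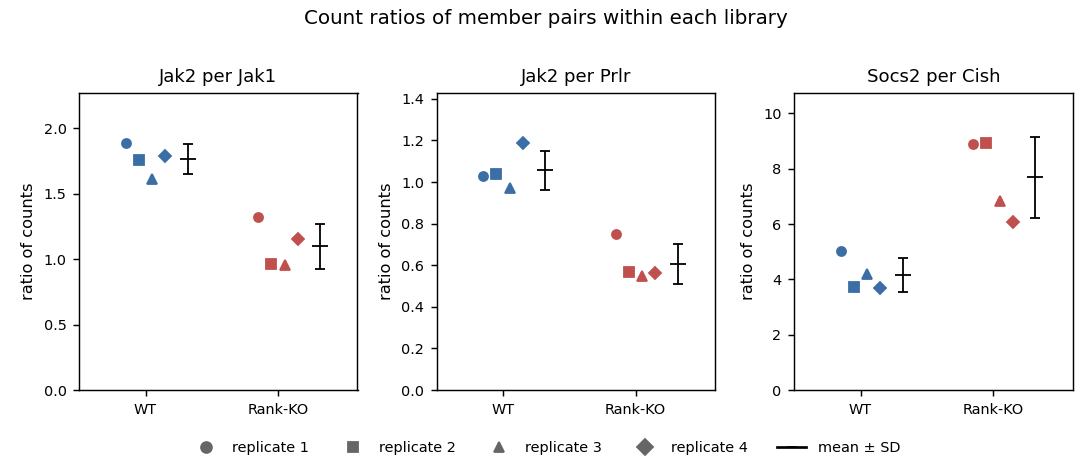
Ratios of raw counts between 2 members within each library (vertical axes from 0), by genotype, with the mean ± SD. The plot shows the 3 of 5 ratios computed in which the genotypes are apart, and Rank-knockout replicate 1 has the highest knockout value of Jak2 per Prlr, 0.75.

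Among the transcription factors, Stat3 fell and the Stat5 genes, which had few counts, did not pass the test. Stat3 (ENSMUSG00000004040, chromosome 11, 100885098 to 100939540, minus strand), the main factor of interleukin-6 and interleukin-22 signals in gut epithelium, was the most abundant member in WT. Its levels were 236.3, 228.3, 283.4 and 257.6 CPM in WT and 185.1, 156.9, 109.7 and 192.7 CPM in Rank-knockout. No knockout library reached the lowest WT library, and Rank-knockout replicate 3 was the lowest. The mean went from 251.4 ± 24.65 to 161.1 ± 37.56 CPM (SD, n = 4), and the log2 fold change was -0.64 (edgeR adjusted p = 0.0095, SE 0.17, 95% interval -0.99 to -0.28). Counts of Stat3 per count of Jak1 overlapped between the genotypes, with 2.01 to 2.34 in WT and 1.27 to 2.18 in Rank-knockout, so Stat3 was not apart relative to Jak1 as it was in CPM.

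Stat5a and Stat5b lie side by side with Stat3 on chromosome 11 and encode the factors of the prolactin response in the mammary gland. Stat5a (ENSMUSG00000004043, 100859351 to 100885169, plus strand) had 15, 33, 5 and 12 counts in WT and 56, 23, 22 and 38 counts in Rank-knockout. On the CPM scale these were 7.51 ± 2.908 and 10.11 ± 1.342 (SD, n = 4), which overlapped, with a log2 fold change of 0.42 (edgeR adjusted p = 0.30, SE 0.29, 95% interval -0.20 to 1.03). Its last bases overlap the end of Stat3 on the opposite strand, and the counting was by strand. Stat5b (ENSMUSG00000020919, 100780731 to 100850724, minus strand) had 30, 22, 28 and 28 counts in WT and 76, 42, 36 and 63 counts in Rank-knockout.

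For Stat5b the knockout libraries were alike, at 15.76 to 16.61 CPM, while WT replicates 1, 3 and 4 had 20.55, 19.12 and 18.64 CPM and WT replicate 2 had 5.575 CPM. Taken over all libraries the log2 fold change was 0.12 (edgeR adjusted p = 0.81, SE 0.32, 95% interval -0.56 to 0.80), and without WT replicate 2 it was -0.27 (edgeR adjusted p = 0.36). The sign thus rests on 1 library, and neither value passed the test. Of the tags of both genes together, Stat5b gave 66.7%, 40%, 84.8% and 70% in WT and 57.6% to 64.6% in Rank-knockout. The exact 95% binomial interval was 27.0% to 54.1% in WT replicate 2, below that of WT replicate 3 (68.1% to 94.9%), and it covers counting error only. The coding transcripts of Stat5a and Stat5b share 608 words of 50 bases, the read length, but 0 of these lie in the last 500 bases of the longest coding transcript of either gene. The other annotated 3′ ends were not checked.

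Of the inhibitors only Cish passed the test. Cish (ENSMUSG00000032578, chromosome 9, 107296026 to 107302784, plus strand), a direct STAT5 target whose product competes for the docking sites of STAT5 on the receptor, carries the motif pair printed above. It had 26.72, 33.70, 26.63 and 28.62 CPM in WT and 16.13, 15.01, 21.58 and 21.88 CPM in Rank-knockout. Every knockout library was below every WT library on this scale. Its mean fell from 28.92 ± 3.319 to 18.65 ± 3.588 CPM (SD, n = 4), and the log2 fold change was -0.65 (edgeR adjusted p = 0.020, SE 0.20, 95% interval -1.07 to -0.23). The call for Cish was lost when WT replicate 2 or either of the knockout replicates 1 and 2 was left out, where the log2 fold change was -0.56, -0.58 and -0.57.

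Socs2 (ENSMUSG00000020027, chromosome 10, 95385362 to 95417180, minus strand), best known as the brake on growth hormone signalling and another STAT5 target, did not follow Cish. Its levels were 134.3, 125.7, 111.3 and 105.8 CPM in WT and 143.5, 134.3, 147.9 and 132.9 CPM in Rank-knockout. The ranges overlapped through WT replicate 1, and a log2 fold change of 0.23 did not pass the test (edgeR adjusted p = 0.21, SE 0.13, 95% interval -0.06 to 0.51). Counts of Socs2 per count of Cish were 5.03, 3.73, 4.18 and 3.70 in WT and 8.89, 8.95, 6.85 and 6.07 in Rank-knockout. These did not overlap, with means of 4.16 ± 0.619 and 7.69 ± 1.46 (SD, n = 4). The ratio is free of scaling, but it restates the lower Cish beside a Socs2 that did not pass the test. How often other pairs of genes separate was not computed, for this ratio or for those of Jak2. Counts of Cish per count of Prlr overlapped, with 0.133 to 0.175 in WT and 0.0905 to 0.144 in Rank-knockout.

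Socs1 and Socs3, which inhibit the kinases directly and are induced by interferons and by interleukin-6 type cytokines, were low and erratic. Socs1 (ENSMUSG00000038037, chromosome 16, 10782240 to 10785536, minus strand) had 4, 13, 17 and 11 counts in WT and 36, 34, 8 and 35 counts in Rank-knockout. The groups overlapped at 6.241 ± 4.12 and 8.306 ± 3.799 CPM (SD, n = 4), and the log2 fold change of 0.53 had a 95% interval of -0.40 to 1.47 (edgeR adjusted p = 0.38, SE 0.44). Socs3 (ENSMUSG00000053113, chromosome 11, 117966079 to 117970047, minus strand) did not pass the filter on low counts. It had 4, 5, 16 and 18 counts in WT and 29, 4, 3 and 13 counts in Rank-knockout, or 6.729 ± 5.506 and 3.108 ± 2.241 CPM (SD, n = 4). Both groups held libraries near 1 CPM, and the difference of -3.62 CPM gave p = 0.34 in an exact two-sided permutation test, in which the smallest possible p was 0.029. For both genes the difference was within the spread between libraries of one genotype.

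The scale on which libraries are compared sets part of these calls. Scaling by library totals alone raised the median log2 fold change over the table by 0.20, and totals without the 50 most abundant genes raised it by 0.13. The calls that were higher made up 52.0% on the TMM scale, 75.0% with library totals and 68.3% without the 50 most abundant genes. With library totals the log2 fold change of Jak2 was -0.80 and still called (edgeR adjusted p = 0.00077), while Stat3 (-0.43, edgeR adjusted p = 0.055) and Cish (-0.45, edgeR adjusted p = 0.087) were no longer called. Socs2 became a call in the upward direction (0.43, edgeR adjusted p = 0.023), and Prlr stood at -0.0036. A scaling moves every gene by about the same amount. Relative to the median of all tested genes, Stat3 stood at -0.66 and Cish at -0.68 on each scaling. With totals without the 50 most abundant genes Stat3 was still called (edgeR adjusted p = 0.030) and Cish was not (edgeR adjusted p = 0.053). The calls of both at a fixed threshold thus depend on the scale.

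**Figure D3:**
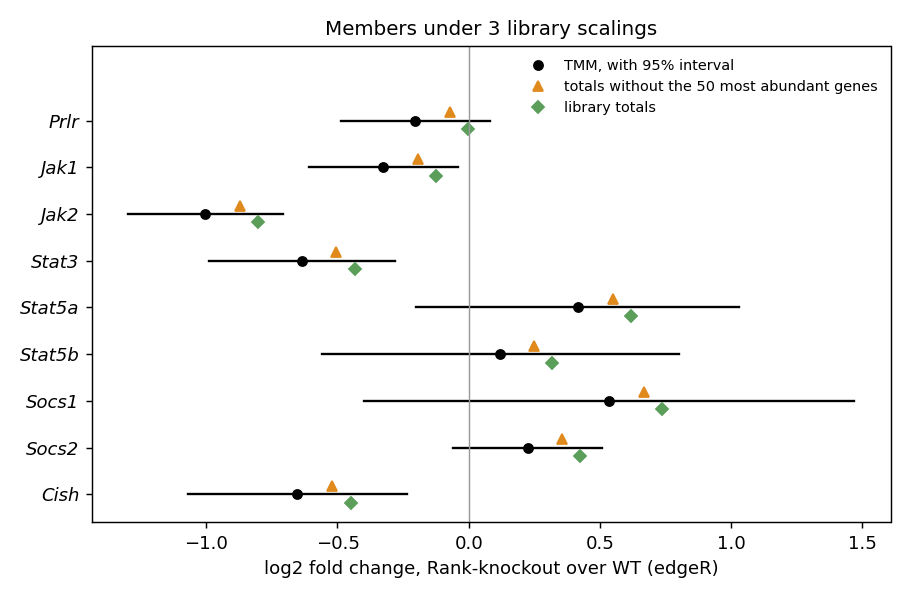
Log2 fold change (horizontal axis) of the 9 tested members on the TMM scale with its 95% interval, and as estimated with library totals and with totals that leave out the 50 most abundant genes. Jak2 lies below 0 on all 3 scales, from -1.0 to -0.80, while Prlr moves from -0.20 to -0.0036.

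The order of the levels changed with the genotype. In WT Stat3 came first, and none of its libraries fell to the range of the next member. Jak2 and Prlr followed with overlapping libraries, then Socs2 and Jak1 with overlapping libraries, then Cish, and last Stat5b, Stat5a, Socs3 and Socs1, where each overlapped its neighbour. In Rank-knockout Prlr had the highest mean and overlapped Stat3, which overlapped Socs2. Jak2, level with Prlr in WT, came after these with no overlap with Socs2, and overlapped Jak1. Cish and Stat5b, which were apart in WT, overlapped.

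The 5 genes whose log2 CPM ran most closely with Prlr over the 8 libraries, among 9467 genes with a mean of at least 5 CPM, were Oaf (Pearson r = 0.981), Cdip1 (0.969), Dtx3l (0.947), Neurl1b (0.946) and Xkr9 (0.943). Their log2 fold changes ran from -0.38 for Oaf to -0.63 for Xkr9, against -0.20 for Prlr. The 8 points fall into 2 genotypes and share their library sizes, and the genes were picked as the highest of many, so these values are a description.

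Beside the members stand 62 other genes of the same kind of signalling, in 5 lists, of which 39 were tested. At an edgeR adjusted p under 0.05, 4 were higher, 9 were lower and 26 did not pass, against 15.8% higher and 14.6% lower among all tested genes. Their median log2 fold change was -0.17. WT and knockout libraries were fully apart for 11 of the 39, near the 28.8% of all tested genes.

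The receptors for other cytokines and hormones were the list with the most calls in 1 direction. Of 22 genes 12 were tested, 6 fell, 0 rose, and the median log2 fold change was -0.60. Of these 6 only Ifnar1, Ifngr2 and Il13ra1 stayed called with library totals, where Il10rb, Il4ra and Ifnar2 stood at -0.38, -0.30 and -0.46 (edgeR adjusted p = 0.14, 0.23 and 0.14). All 3 of these last calls were also lost with totals without the 50 most abundant genes, and when WT replicate 3 or 4 or knockout replicate 2 or 3 was left out. In addition Il10rb was not called with limma-voom, without WT replicate 1 or without knockout replicate 1, Il4ra at a mean CPM of at least 5 or without WT replicate 2, and Ifnar2 with DESeq2, with no filter, without WT replicate 2 or without knockout replicate 1. Ifnar1, a chain of the type I interferon receptor, went from 20.62 ± 4.036 to 10.01 ± 2.778 CPM (SD, n = 4), and the log2 fold change was -1.05 (edgeR adjusted p = 0.0048, SE 0.24). Ifngr2, a chain of the interferon gamma receptor, stood at -0.90 (edgeR adjusted p = 0.0064, SE 0.22), with 1 knockout library inside the WT range. For Il13ra1, which binds interleukin-13, the value was -0.61 (edgeR adjusted p = 0.0071, SE 0.15), and its libraries did not overlap. The receptor of growth hormone, Ghr, a close relative of Prlr that also uses JAK2, had 67 counts in all WT libraries and 56 in all knockout libraries and did not pass (log2 fold change -0.82, SE 0.39, edgeR adjusted p = 0.12); it is named here after its value was seen. Epor and Csf3r, receptors that signal through JAK2 in blood cells, had 0 counts in all 8 libraries. A count of 0 allows a level from up to 0.637 CPM in Rank-knockout replicate 1 to up to 2.06 CPM in WT replicate 1 (3 counts per library).

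None of the other JAK and STAT genes was called: of 6 genes 4 were tested with edgeR, 0 of these had an unadjusted p under 0.05, and their median log2 fold change was -0.06. The other negative regulators held 13 genes, 12 of them tested, with 1 call in each direction and a median log2 fold change of 0.05. Socs6, a SOCS protein linked to insulin and receptor tyrosine kinase signals, rose from 22.73 ± 4.41 to 41.05 ± 6.414 CPM (SD, n = 4), and the log2 fold change was 0.83 (edgeR adjusted p = 0.0050, SE 0.19). Ptpn6, which encodes the phosphatase SHP-1, had a log2 fold change of -0.59 (edgeR adjusted p = 0.026, SE 0.19), and its call was lost with library totals (-0.39, edgeR adjusted p = 0.12), with totals without the 50 most abundant genes (-0.46), with no filter on low counts (-0.56), without WT replicate 4 (-0.57), without Rank-knockout replicate 3 (-0.60) and without Rank-knockout replicate 4 (-0.52).

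Known targets of STAT5 did not move one way, and this list is not a measure of STAT5 activity. The study reports Bcl2l1 among the anti-apoptotic genes that RANK stimulation induced in organoids. All 10 cycling crypt markers were called higher beside Ccnd1 and Ccnd2. The part of other signals in these calls was not tested. Of 13 genes 6 were tested, 2 were higher and 2 lower. Ccnd1, which encodes the cell cycle protein cyclin D1, went from 139.3 ± 40.04 to 377.9 ± 76.02 CPM (SD, n = 4), and the log2 fold change was 1.44 (edgeR adjusted p = 0.00027, SE 0.20). Its relative Ccnd2 stood at 0.84 (edgeR adjusted p = 0.0085, SE 0.21). Bcl2l1, which encodes the survival protein BCL-XL, fell from 122.2 ± 15.79 to 74.68 ± 2.007 CPM, and the log2 fold change was -0.71 (edgeR adjusted p = 0.0018, SE 0.14). Pim1, a survival kinase that is named here after its value was seen, stood at -0.79 (edgeR adjusted p = 0.012). The mammary targets Csn2, Wap, Elf5 and Tnfsf11, the last of which encodes RANKL, had 0 counts in all 8 libraries, as had Igf1. Of 8 STAT3 targets known from gut epithelium 5 were tested and 1 was called: Birc5, which encodes survivin, a protein of dividing cells, was higher by a log2 fold change of 1.29 (edgeR adjusted p = 0.00019, SE 0.17).

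**Figure D4:**
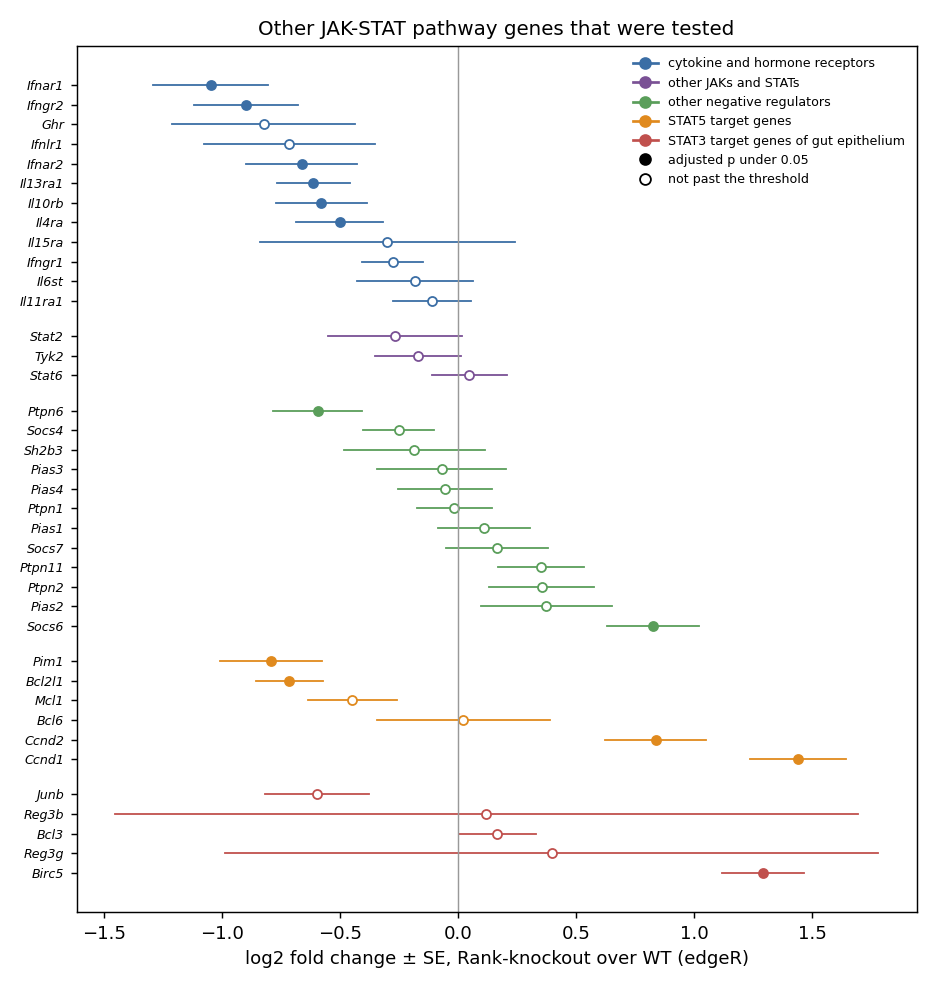
Log2 fold change ± SE (horizontal axis) of 38 of the 39 tested genes of the 5 other lists, coloured by list, with filled points for an edgeR adjusted p under 0.05. Filled receptor points all lie below 0, while the filled points of the STAT5 targets lie on both sides, from -0.79 for Pim1 to 1.44 for Ccnd1.

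Markers of epithelial cell types moved with the genotype beside these values. The summed CPM of 10 villus enterocyte markers was 21320 to 28290 in WT and 9231 to 12970 in Rank-knockout, and 9 of the 10 genes were called lower. That of 10 cycling crypt markers was 335.5 to 548.4 in WT and 780.8 to 1321 in Rank-knockout, with 10 of 10 called higher. Stem cell markers (2 of 5 called) and Paneth cell markers (3 of 6) had calls upward only, and their summed levels overlapped (270.9 to 400.1 against 389.1 to 940.6 CPM and 2091 to 4464 against 2896 to 9329 CPM). In bulk RNA fewer cells of a type and less RNA per cell cannot be told apart, and the part of these shifts in the lower Jak2, Stat3 and Cish was not tested. The label of epithelial cells fits the markers: the sum of 6 epithelial genes was 9490 to 10490 CPM in WT and 7362 to 9271 CPM in Rank-knockout, and Epcam, Vil1 and Krt20 were called lower (log2 fold change -0.45, -0.80 and -0.96) and Krt19 higher (0.65). The most abundant of them, Cdh1, had means of 4599 and 4520 CPM. T cell markers summed to 181.7 to 274.2 CPM in WT and 120.5 to 194.0 CPM in Rank-knockout, mostly from Gzma, and 0 of the 5 tested were called. The sum of 5 B and plasma cell markers was 6.829 to 10.64 CPM in WT and 0.4496 to 4.882 CPM in Rank-knockout, without overlap, and none of these genes passed the filter on low counts. Myeloid (4.78 to 13.02 against 3.163 to 11.25 CPM), stromal and muscle (3.994 to 6.85 against 1.799 to 10.88 CPM) and endothelial markers (0.6829 to 4.795 against 1.349 to 2.372 CPM) overlapped, and Cd79a, Adgre1 and Cdh5 were at 0 in all 8. Goblet cell markers summed to 4084 to 4934 CPM in WT and 2718 to 3683 CPM in Rank-knockout (3 of 5 lower, 1 higher), while 0 tuft and 0 enteroendocrine genes were called.

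The deleted gene itself, Tnfrsf11a, had 113, 196, 61 and 111 counts in WT and 128, 112, 79 and 179 counts in Rank-knockout, a log2 fold change of -0.67 (edgeR adjusted p = 0.032, SE 0.22). Tags from its 3′ end need not lie in the deleted part, so these counts check nothing about the labels.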

How the data were processed

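RNA was taken from intestinal epithelial cells of 4 WT and 4 Rank-knockout dams, and 3′ tags of polyadenylated RNA were sequenced as single reads of 50 bases. The authors trimmed the reads, removed those from ribosomal DNA, mitochondria and phiX, used STAR to align what remained to GRCm38, and counted sense-strand reads of each gene (featureCounts). These raw counts, without normalization, are what the authors deposited. Molecular identifiers are not mentioned, so the binomial intervals of shares and the limits at 0 counts cover counting error only. Of the 54532 gene IDs 54409 were found in GENCODE M21, which gave symbols and positions.

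All genes were fitted with the edgeR 4.0.16 quasi-likelihood F test in R 4.3.3, with filterByExpr, TMM scaling and a term for genotype. Adjustment was by Benjamini-Hochberg over 9855 genes, and the threshold was 0.05. Intervals of fold changes and SE come from the same fit and include the spread between mice. The code was tested on simulated data. The authors tested with DESeq2, run here as an alternative (1.42.0), as were RLE factors, library totals, totals without the 50 most abundant genes, no filter, a mean CPM of at least 5, limma-voom (limma 3.58.1), a replicate block and each library left out. Motif letters were searched in RefSeq promoter windows.

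The members and lists were chosen with earlier results of these data known. The text names every member, the called genes with the 3 smallest p of each pathway list, genes at 0, at most 2 genes per marker list, and the 5 genes most like Prlr. Outside this rule, Il10rb, Il4ra, Ifnar2, Pim1, Ghr, Vil1, Krt19, Krt20, Reg3b, Reg3g, Saa1 and Lcn2 were named after their values were seen. An item of the pathway lists is not reported here. The mice are separate animals by their titles. Total counts were 1530781 to 4335653 per library.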

Additional observations from a re-analysis of the deposited data

Results flagged for a closer look

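In 56 sets of 4 libraries (the members, the called pathway genes and the ratios, by genotype), 3 held a library far from the others by Dixon's criterion, where chance gives about 1 in 20, or 2.8. Stat5b had 5.57 CPM in WT replicate 2 and 18.6 to 20.6 CPM in the other WT libraries. Birc5 had 626 CPM in Rank-knockout replicate 1 and 454 to 478 CPM in the other knockout libraries. The ratio of Jak2 per Prlr was 0.75 in Rank-knockout replicate 1 and 0.548 to 0.568 in the others, still below the lowest WT value of 0.969. WT replicate 2 is the deepest library, so the low Stat5b value does not come with a low total. Over all 9855 tested genes WT replicate 2 stood apart on the low side in 0.863% and on the high side in 1.04%. The cause was not tested for any of the 3.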

How the results depend on the processing

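Of 144 values of the tested members under alternatives, 136 kept their direction and their side of the threshold, 6 lost a call, 1 gained one (Socs2 with library totals) and 1 reversed: Stat5b, at -0.27 without WT replicate 2 and up to 0.27 with another library left out. The lost calls were those of Stat3 with library totals and of Cish with library totals, without the 50 most abundant genes (-0.52, edgeR adjusted p = 0.053) and without each of 3 libraries. Jak2 stayed called throughout, between -1.06 and -0.92 with a library left out. The number of members called was 3, or 2 to 3 with a library left out. Among the other pathway genes 13 were called, 10 with library totals, 9 without the 50 most abundant genes and 9 to 14 with a library left out. Of 208 values of these 13 genes 175 kept their call and 33 lost it, those of Il10rb, Il4ra, Ifnar2 and Ptpn6. Over all genes 2993 were called, or 2153 to 3272 with a library left out. The difference of Socs3 ran from -5.44 to -1.87 CPM with a library left out, and with no filter edgeR gave it a log2 fold change of -0.76 (edgeR adjusted p = 0.26). With a replicate block 3 members, 15 pathway genes and 3310 genes in all were called, and no member's call changed. Deviations of same-numbered libraries correlated at r = 0.052, 0.15, -0.14 and 0.32 for numbers 1 to 4, against a highest of 0.033, 0.25, 0.12 and -0.036 between that WT library and a knockout library of another number, so WT replicates 1 and 4 correlated best with their own number and 2 and 3 did not, and the numbers were not taken to pair the libraries. Stat5a, Stat5b, Socs1 and Socs3 rest on few counts per library (5 to 56, 22 to 76, 4 to 36 and 3 to 29), and the part of depth in their wide intervals was not tested.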

Other observations

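Reg3b and Reg3g, antimicrobial lectins that STAT3 is known to induce in gut epithelium, were named after their values were seen. Reg3b had 522.7, 707.7, 5478 and 1521 CPM in WT replicates 1 to 4 and 8268, 235.7, 166.4 and 256.2 CPM in Rank-knockout. Reg3g followed the same libraries, with 282.9, 305.9, 1632 and 586.4 CPM in WT and 3291, 135.8, 95.32 and 155.5 CPM in Rank-knockout. Rank-knockout replicate 1 was the highest of all 8 libraries for both genes and the other three knockout libraries were the lowest, and neither gene passed the test (edgeR adjusted p = 0.97 and 0.86). Rank-knockout replicate 1 also held all 20 knockout counts of Saa1 and 17 of the 23 knockout counts of Lcn2. In WT each of these genes had a total of 1 count, in replicate 2. Its Socs3 level, 6.156 CPM, was the highest among the knockout libraries and below WT replicates 3 and 4, and its Stat3 level, 185.1 CPM, lay within the range of the other knockout libraries.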
